A study of Mus musculus with 4 samples.

Results

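Axon guidance ligands and receptors were examined in RNA sequencing libraries of microglia, the resident macrophages of the brain, from the mouse cerebral cortex. The genes were chosen by name among the protein-coding rows: class 3 to 7 semaphorins with plexins and neuropilins, ephrins with Eph receptors, Slits with Robo receptors, and netrins with DCC and UNC5 receptors. This gave 67 genes, 33 for ligands and 34 for receptors, of 21981 genes in the deposited tables. The libraries cKO 2 and cKO 5 were labelled Bach1 cKO, a conditional knockout that the series text gives the suffix Cx3, and control 1 and control 6 were labelled Bach1 fl/fl, the floxed allele without a named Cre. All came from untreated embryos at embryonic day 16. The series text speaks of triplicates, and 2 libraries per genotype were analysed here. The labels do not say which cells lose the gene, whether animals were pooled, or whether libraries of a genotype came from separate animals, so the spread between libraries may be technical. Bach1 encodes a heme-binding repressor of antioxidant genes.

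These families steer growing axons, migrating neurons and sprouting vessels. A secreted or membrane-bound ligand binds a receptor on a neighbouring cell, whose cytoplasmic part then acts on small GTPases and the actin and microtubule cytoskeleton to repel or attract the cell. Semaphorins act through plexins, with neuropilins as co-receptors for most class 3 members. Ephrins and Eph receptors can signal into both cells, Slits bind Robo receptors, and netrin 1 attracts through DCC and repels through UNC5 proteins. In the embryonic cortex many of these genes are active in neurons and radial glia, some are known from endothelium (Robo4, Ephb4, Unc5b, Plxnd1), and some from macrophages and lymphocytes (Sema4d, Sema4a, Plxnb2).

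The libraries held 17310621 and 19305078 reads in cKO 2 and cKO 5, against 17472809 and 17233115 in control 1 and control 6. Levels are deposited CPM values, which divide a read count by the size of its library, and 3 reads corresponded to 0.155 to 0.174 CPM. The labelled cell type was checked against markers. All 24 microglial markers were detected in every library, and all 24 had their lowest value in cKO 2. Their summed level was 12139 CPM in cKO 2 and 46748 CPM in cKO 5, against 32695 CPM in control 1 and 52080 CPM in control 6. Markers of excitatory neurons summed to 5073 and 1265 CPM in cKO 2 and cKO 5. In control 1 and control 6 they summed to 2007 and 1271 CPM, and 16 of 20 were highest in cKO 2. Mef2c, Sla and Tle4 in this list were lower in cKO 2 than in cKO 5. The sum in cKO 2 was 4.01-fold that in cKO 5, while the median difference of the 20 genes was 3.04 on the log2(CPM + 0.5) scale. The 14 radial glia and astrocyte markers present in all libraries were highest in cKO 2 throughout, at 1459 and 208 CPM in cKO 2 and cKO 5 against 687 and 229 CPM in control 1 and control 6. Endothelial markers summed to 4489 and 859 CPM in cKO 2 and cKO 5 and to 6026 and 1304 CPM in control 1 and control 6, with 11 of 12 highest in control 1. No microglial, excitatory neuron or endothelial marker was at 0 in any library. Bach1 itself had 29.98 and 35.4 CPM in cKO 2 and cKO 5, against 45.8 and 21.6 CPM in control 1 and control 6. The cKO values lay between the control values, so the count of the targeted gene does not separate the labels (log2 fold change −0.07 ± 0.47). The labels do not give the floxed exons.

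Guidance genes were most abundant in cKO 2. Together they took 60069 reads, or 0.347% of the library (95% Wilson interval 0.344% to 0.350%), in cKO 2 and 0.128% (0.127% to 0.130%) in cKO 5. Their share was 0.232% (0.230% to 0.235%) in control 1 and 0.126% (0.124% to 0.128%) in control 6. These intervals cover counting error only. The cKO libraries thus held the highest share and one close to the lowest. Of the 65 genes with a count in every library, 47 (72.3%) had their highest value in cKO 2, where 47.8% of all genes tested did. Another 10 were highest in control 1, 6 in cKO 5 and 2 in control 6. The lowest value was in cKO 5 for 43 genes (66.2%, against 36.6% of all genes tested). The part of the neural, vessel and microglial marker levels in these differences was not tested. In bulk RNA, fewer cells of a type and less RNA per cell cannot be told apart.

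**Figure D1:**
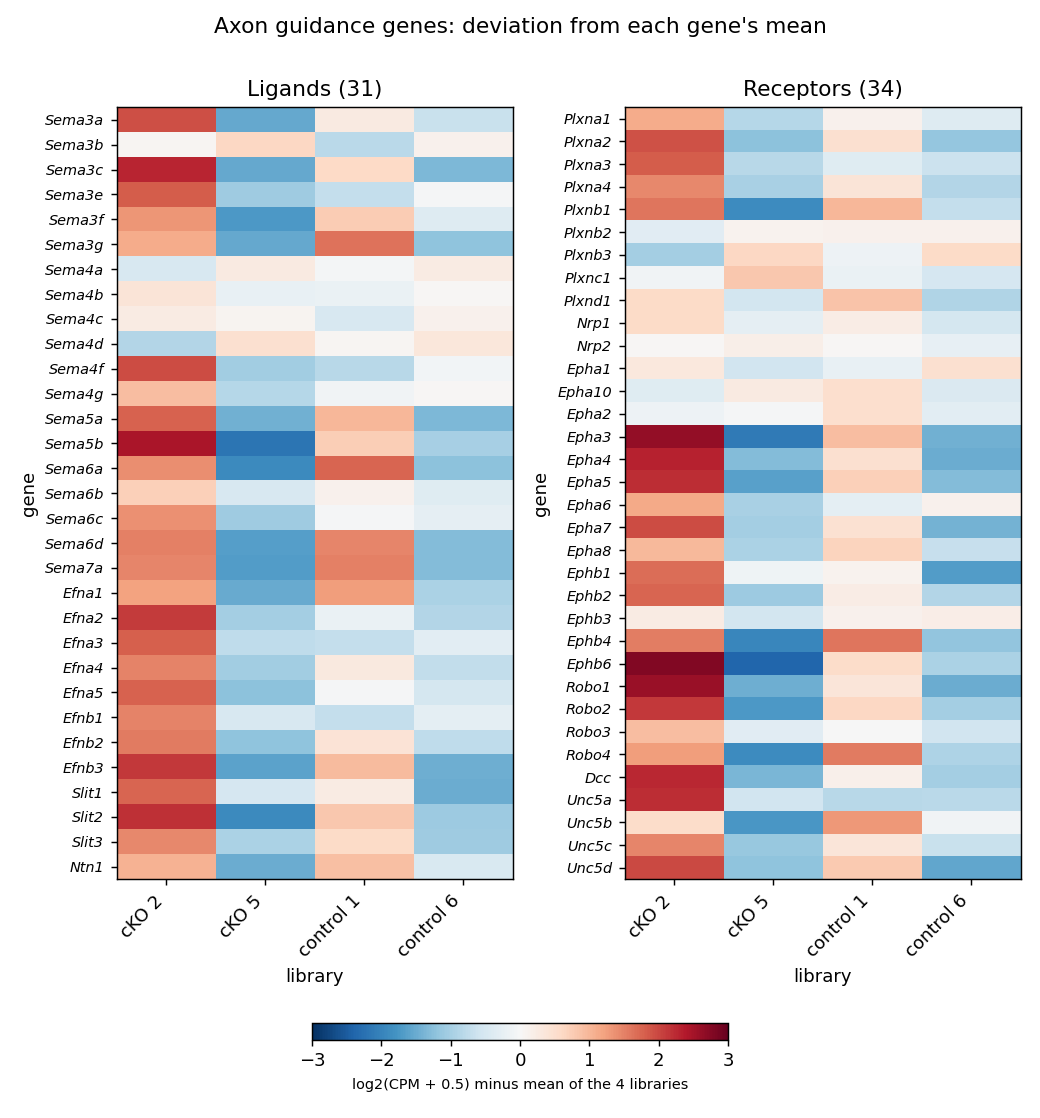
Heat map of log2(CPM + 0.5) minus each gene's mean over the 4 libraries (colour scale) for 31 ligand genes (left) and 34 receptor genes (right), with 1 column per library. Most rows are darkest red in cKO 2 and blue in cKO 5 and control 6, while Sema4a, Sema4d, Plxnb2 and Plxnb3 are lowest in cKO 2.

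Class 3 semaphorins are the secreted ligands of neuropilin and plexin complexes. The 6 with a count in every library summed to 97.5 and 7.23 CPM in cKO 2 and cKO 5. In control 1 and control 6 they summed to 38.9 and 11.3 CPM. Sema3c, which guides cortical axons and outflow tract cells, had 55.2 and 3.47 CPM in cKO 2 and cKO 5, against 16.998 and 4.004 CPM in control 1 and control 6. Sema3a, the classical repellent that collapses growth cones, had 25.8 and 1.86 CPM in the cKO libraries and 7.78 and 3.83 CPM in the controls, in the same order of replicates. For both genes the control values lay between the cKO values. Sema3g, a ligand made by arterial endothelium, had 7.28 and 0.725 CPM in cKO 2 and cKO 5, against 10.5 and 1.04 CPM in control 1 and control 6, and was highest in control 1 instead. Sema3e, a ligand of plexin D1, had 58 reads (3.35 CPM) in cKO 2 and none in cKO 5, where 3 reads would be 0.155 CPM, and 3 and 10 reads in control 1 and control 6. Sema3f had 5.31 and 0.207 CPM in the cKO libraries and 3.43 and 1.28 CPM in the controls. Sema3b reached at most 18 reads and Sema3d at most 3 reads in any library with a count.

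Class 4 semaphorins are transmembrane ligands, and their genes did not share 1 order of libraries: Sema4d and Sema4a were lowest in cKO 2, while Sema4b, Sema4c, Sema4f and Sema4g were highest there. Sema4d, also known as CD100 on lymphocytes, had 129 and 333 CPM in cKO 2 and cKO 5, against 248 and 302 CPM in control 1 and control 6. It was the most abundant guidance gene in cKO 5 (25.99% of the summed CPM of the guidance genes) and in control 6 (23.95%), and it was lowest in cKO 2. Sema4a, an immune semaphorin of dendritic cells and macrophages, had 26.1 and 44.3 CPM in cKO 2 and cKO 5 and 35.3 and 43.7 CPM in control 1 and control 6. Here too the cKO values lay on either side of both controls. Sema4b stayed between 13.002 and 19.9 CPM, and Sema4c, a ligand of plexin B2, between 15.5 and 26.1 CPM. Sema4f had 20.7 and 2.18 CPM in the cKO libraries and 2.58 and 4.70 CPM in the controls, and Sema4g had 23.1 and 6.42 CPM against 11.0 and 12.3 CPM. As a sum, the 6 class 4 genes were lowest in cKO 2 (245 CPM, with 422 CPM in cKO 5, 325 CPM in control 1 and 402 CPM in control 6), a sum of which Sema4d made up the larger part.

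The promoters of the guidance genes, ligands and receptors alike, were read for elements of the kind that BACH1 binds with small Maf proteins. The element was the antioxidant response core TGACNNNGC on either strand (GCNNNGTCA when read from the other strand). RefSeq promoter windows on GRCm38.p6 covered 57 of the 67 genes with 73 windows of 250 bases before a start. The core was found in 8 of the 73 windows (11.0%), against 10.2% of 32851 windows of all genes. Genes with several annotated starts have more windows in which a match can fall. Matches are shown for Sema4d, Sema4a and Plxnb3, genes lowest in cKO 2, for Efnb2, a gene highest in cKO 2 with 3 cores, and for Sema7a, highest in control 1, so that genes of different order stand side by side. The sequence runs 5′ to 3′ on the gene's strand, with the core in capitals.
Sema4d, chr13:51756694-51756734, minus strand: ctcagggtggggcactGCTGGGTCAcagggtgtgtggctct
Sema4a, chr3:88458896-88458936, minus strand: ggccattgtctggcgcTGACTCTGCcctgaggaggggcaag
Plxnb3, chrX:73756923-73756963, plus strand: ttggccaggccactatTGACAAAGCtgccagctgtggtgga
Efnb2, chr8:8661243-8661276, minus strand: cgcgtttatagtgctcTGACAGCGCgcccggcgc
Sema7a, chr9:57940047-57940087, plus strand: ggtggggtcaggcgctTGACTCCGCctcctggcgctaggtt
The Sema4d core ended 27 bases before one of the annotated starts of that gene, the Sema4a core 28 bases, the Plxnb3 core 156 bases, the Efnb2 core 10 bases and the Sema7a core 41 bases before a start. Efna5, Ntn4 and Sema3g also held matches. A match is a stretch of letters and not a shown binding site.

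Class 5 semaphorins, transmembrane ligands with thrombospondin repeats, had the largest ratio between libraries of any family sum, 72.4 CPM in cKO 2 against 3.26 CPM in cKO 5, with 26.8 CPM in control 1 and 6.21 CPM in control 6. Sema5b had 53.9 and 1.71 CPM in the cKO libraries and 16.3 and 4.53 CPM in the controls. Sema5a had 18.5 and 1.55 CPM against 10.5 and 1.68 CPM. Both were highest in cKO 2.

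Classes 6 and 7 held genes that were high in cKO 2 and control 1 alike. Sema6d, a ligand of plexin A1, had 151 and 16.5 CPM in cKO 2 and cKO 5, against 146 and 21.2 CPM in control 1 and control 6. Sema6a, a ligand of plexins A2 and A4, had 123 and 12.1 CPM against 158 and 19.7 CPM. Sema7a, the GPI-anchored ligand of plexin C1, had 5.66 and 0.207 CPM against 5.95 and 0.406 CPM. For these 3 genes the libraries of a genotype differed by 6.90-fold to 27.3-fold, while the highest values of the genotypes lay close together. Sema6b and Sema6c reached at most 5.78 and 6.41 CPM, in cKO 2.

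Ephrins are membrane-bound ligands, the A class held by a GPI anchor and the B class with a cytoplasmic tail. Efnb3, known from midline repulsion of corticospinal axons, had 55.5 and 3.78 CPM in the cKO libraries, against 24.4 and 4.18 CPM in the controls. Efnb1 had 51.1 and 12.8 CPM in cKO 2 and cKO 5 and 10.9 and 14.6 CPM in control 1 and control 6. Efnb1 thus stood out in cKO 2 only, with cKO 5 between the controls. Efnb2, an arterial and neural ephrin, had 30.4 and 4.04 CPM against 13.6 and 5.69 CPM. Efna1, known from endothelium, had 22.6 and 3.06 CPM in the cKO libraries and 23.8 and 4.70 CPM in the controls, and was the A class gene that was highest in control 1. Efna2, Efna3, Efna4 and Efna5 were all highest in cKO 2, at 3.93 to 21.1 CPM there and 0.259 to 3.26 CPM in cKO 5. In Efna3 and Efna4, 14.1% and 10.5% of annotated exon bases are shared with another gene, so their counts are uncertain.

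Slits are large secreted repellents. In cKO 2, where both were highest, Slits and netrins had the lowest sums of the families, 49.7 and 4.45 CPM. Slit2 had 30.2 and 1.29 CPM in cKO 2 and cKO 5, against 11.4 and 2.67 CPM in control 1 and control 6. Slit1 had 15.2 and 2.80 CPM against 5.04 and 1.16 CPM, and Slit3 had 4.33 and 0.414 CPM against 2.12 and 0.348 CPM. All Slit genes were highest in cKO 2 and second in control 1. Ntn1, the netrin of the floor plate and ventricular zone, had 4.16 and 0.311 CPM in the cKO libraries and 3.72 and 1.16 CPM in the controls. Ntn4 had at most 5 reads in the libraries with a count.

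Plexins, the semaphorin receptors, shared an order of libraries in class A but not in class B. All A plexins were highest in cKO 2: Plxna2 had 234 and 26.004 CPM in cKO 2 and cKO 5, against 86.8 and 27.7 CPM in control 1 and control 6. Plxna3 had 45.5 and 6.84 CPM against 9.56 and 7.83 CPM, and Plxna4 had 76.3 and 14.04 CPM against 36.9 and 15.0 CPM. Control 1 lay above cKO 5 and control 6 for each of these genes. Plxna1 had 29.2 and 7.10 CPM in cKO 2 and cKO 5, against 14.7 and 10.039 CPM in control 1 and control 6, and shares 10.7% of its exon bases with another gene. Plxnb2, the receptor of Sema4c and Sema4d with a known role in mouse macrophages, had 162 and 221 CPM in cKO 2 and cKO 5, against 225 and 227 CPM in control 1 and control 6. Only cKO 2 lay apart, below the other libraries. Plxnb1 had 37.8 and 2.90 CPM in the cKO libraries and 24.4 and 7.14 CPM in the controls, an order opposite to that of Plxnb3, at 1.56 and 5.91 CPM against 3.26 and 5.74 CPM. Plxnc1, the Sema7a receptor, had 12.998 and 25.1 CPM in the cKO libraries, above the 12.2 and 9.75 CPM of control 1 and control 6. Plxnd1, a receptor of endothelium, had 56.96 and 25.8 CPM against 69.5 and 20.1 CPM.

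Neuropilins are co-receptors for semaphorins and for vascular endothelial growth factor. Nrp1 had the highest mean of all guidance genes, at 459 and 257 CPM in cKO 2 and cKO 5, against 357 and 213 CPM in control 1 and control 6. Nrp2 was the most even of the abundant genes, with 70.7 and 77.1 CPM in the cKO libraries and 70.5 and 58.03 CPM in the controls. Its highest and lowest libraries differed by 1.33-fold.

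Eph receptors, the tyrosine kinases that bind ephrins, differed widely within each genotype. Epha4, which binds ephrins of both classes, had 228 and 18.3 CPM in cKO 2 and cKO 5, against 63.3 and 15.9 CPM in control 1 and control 6. Epha3 had 209 and 7.25 CPM against 63.8 and 12.01 CPM, and Epha5, a receptor in cortical and hippocampal axon mapping, had 125 and 8.29 CPM against 43.7 and 10.5 CPM. The order of libraries in Epha3, Epha5 and Epha4 placed cKO 2 above control 1 and both far above the other two. Ephb6, which lacks kinase activity, had 50.7 and 0.932 CPM (878 and 18 reads) in the cKO libraries, with 10.4 and 3.37 CPM in the controls. Ephb4, the venous receptor of ephrin B2, had 49.4 and 3.94 CPM in the cKO libraries and 51.7 and 7.08 CPM in the controls. Epha2 ranged only from 6.91 to 12.4 CPM and Ephb3 from 5.49 to 9.82 CPM. Epha7 and Ephb2 were highest in cKO 2, at 43.0 and 46.8 CPM, with 5.02 and 6.11 CPM in cKO 5. Ephb1 had 14.3 and 3.73 CPM in the cKO libraries and 4.46 and 0.928 CPM in the controls. Epha1, Epha6, Epha8 and Epha10 had at most 38 reads in any library, and Epha1 and Epha6 had none in cKO 5 (floor 0.155 CPM) and Epha10 none in control 6 (floor 0.174 CPM).

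Robo receptors did not share a single order of libraries. Robo1 had 127 and 7.15 CPM in cKO 2 and cKO 5, against 26.7 and 7.08 CPM in control 1 and control 6. Robo2 had 96.7 and 6.32 CPM against 34.1 and 10.6 CPM. Robo4, an endothelial receptor known for stabilising vessels, had 136 and 14.9 CPM against 168 and 29.8 CPM, and was highest in control 1. Among netrin receptors, Unc5d had 71.2 and 7.46 CPM in the cKO libraries and 31.2 and 5.69 CPM in the controls. Dcc had 44.5 and 3.16 CPM against 9.90 and 4.12 CPM. Unc5b, the vascular UNC5 receptor, had 17.2 and 3.06 CPM in cKO 2 and cKO 5, against 29.2 and 10.6 CPM in control 1 and control 6, and so differed from Dcc and Unc5d in being highest in control 1. Unc5a had 15.5 and 1.81 CPM against 1.43 and 1.45 CPM, so that cKO 2 alone stood high. Unc5c had 6.01 and 0.570 CPM in the cKO libraries and 2.52 and 0.986 CPM in the controls, and Robo3 had 1.56 and 0.363 CPM against 0.572 and 0.232 CPM.

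**Figure D2:**
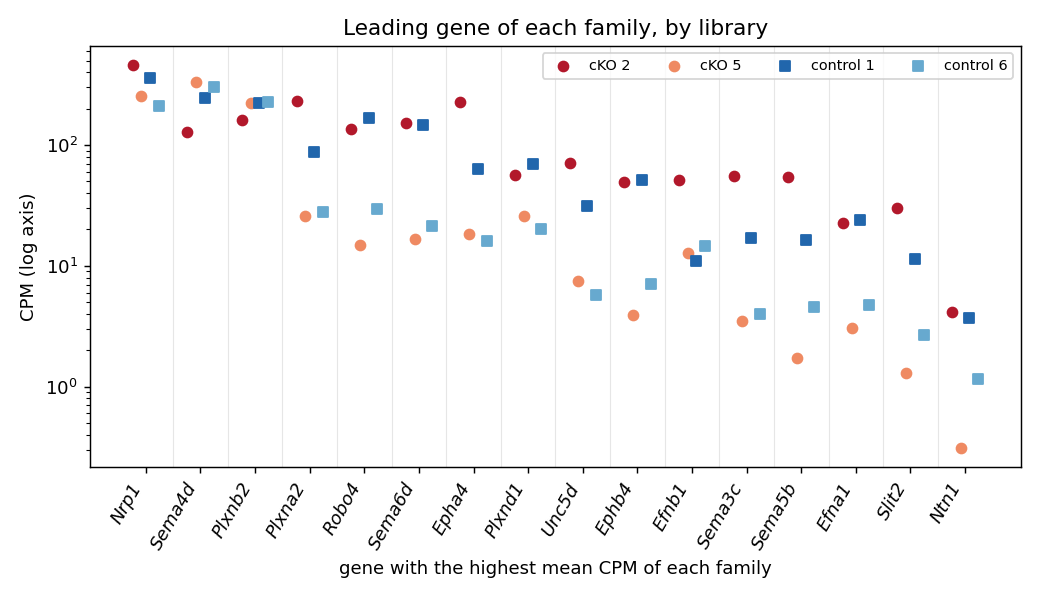
CPM (log axis) of the gene with the highest mean in each of 16 families, in cKO 2 and cKO 5 (circles) and control 1 and control 6 (squares). Sema4d and Plxnb2 are lowest in cKO 2, while Plxna2, Epha4, Unc5d and Sema5b are highest there and Robo4 is highest in control 1 at 168 CPM.

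Levels were set per length to order genes within a library (CPM per kilobase of annotated exon sequence). In cKO 2 the leading genes on that scale were Nrp1 (46.95), Epha4 (28.3), Robo4 (25.6) and Epha3 (24.0). In cKO 5 they were Sema4d (43.4), Plxnb2 (28.6), Nrp1 (26.3) and Sema4a (8.19). In control 1 they were Nrp1 (36.5), Sema4d (32.2), Robo4 (31.7) and Plxnb2 (29.1), and in control 6 Sema4d (39.3), Plxnb2 (29.4), Nrp1 (21.7) and Sema4a (8.08). Nrp1, Sema4d and Plxnb2 were thus the 3 leading genes of cKO 5 and control 6, and all of them were also among the first 4 of control 1. Robo4 was among the first 4 in cKO 2 and control 1, and Eph genes in cKO 2.

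The differences between libraries of a genotype were set beside those between genotypes on the log2(CPM + 0.5) scale. Over the 60 genes tested, the median absolute difference was 2.74 between cKO 2 and cKO 5, 1.23 between control 1 and control 6, and 0.42 between the genotype means. Over all 15951 genes tested these medians were 0.86, 0.45 and 0.28. Single libraries vary more than means of 2 libraries. The differences within a genotype would therefore tend to be the larger even if the genotypes did not differ. The difference between the cKO libraries exceeded that between genotypes for 57 of 60 guidance genes (95%, against 83.8% of all genes tested). At 2-fold or more on that scale, cKO 2 exceeded cKO 5 for 49 of the 60 genes (81.7%, against 31.2% of all genes tested), and control 1 exceeded control 6 for 36 (60%, against 20.2%). The reverse differences of 2-fold held for 2 genes between the cKO libraries (3.33%, against 13.1% of all genes tested) and 0 between the controls (against 3.66%).

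**Figure D3:**
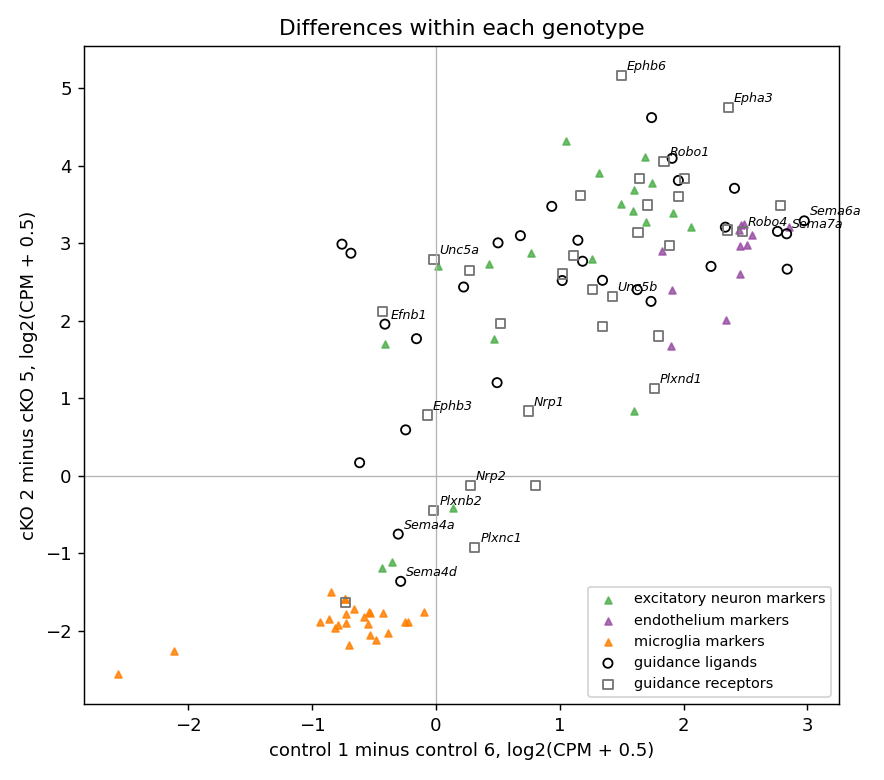
Difference between cKO 2 and cKO 5 (y axis) against difference between control 1 and control 6 (x axis), both on the log2(CPM + 0.5) scale, for 60 guidance genes (open symbols) and for excitatory neuron, endothelial and microglial markers (triangles). Microglial markers lie at negative values on both axes, and 44 of the 60 guidance genes lie at positive values on both.

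Levels were also given per 1000 CPM of a marker list's sum, a description added after the data were seen. Per 1000 CPM of radial glia and astrocyte markers, Plxna2 had 160 and 125 in cKO 2 and cKO 5, against 126 and 121 in control 1 and control 6. Its highest and lowest libraries then differed by 1.32-fold, against 8.98-fold in CPM. Plxna4 differed by 1.29-fold on that scale (5.44-fold in CPM), Efnb2 by 1.28-fold (7.53-fold) and Ephb2 by 1.38-fold (7.66-fold), whereas Epha3 still differed by 4.11-fold (28.8-fold in CPM). Per 1000 CPM of endothelial markers, Efna1 had 5.05 and 3.56 in the cKO libraries and 3.94 and 3.60 in the controls, a 1.42-fold range against 7.77-fold in CPM. Robo4 had 30.3 and 17.3 against 27.9 and 22.8, a 1.75-fold range against 11.3-fold in CPM. Plxnd1 had 12.7 and 30.1 against 11.5 and 15.4, a 2.61-fold range against 3.45-fold in CPM. Per 1000 CPM of microglial markers, Plxnb3 had a 1.29-fold range (3.79-fold in CPM). Plxnb2, in contrast, had 13.3 and 4.73 on that scale in cKO 2 and cKO 5 and 6.87 and 4.36 in control 1 and control 6, so its range was wider per microglial marker (3.06-fold) than in CPM (1.40-fold). Of 5 marker lists tried, the narrowest range was below that in CPM for the radial glia and astrocyte list in 26 genes. It was so for the endothelial list in 14 genes and the excitatory neuron list in 9. The border-associated macrophage list gave it in 1 (Sema4d) and the microglial list in 1 (Plxnb3). Some ranges stayed wide: Sema3e 20.4-fold and Ephb6 7.76-fold per radial glia marker, and Epha6 16.2-fold per endothelial marker. Sema4d ranged 1.75-fold per border-associated macrophage marker and 1.84-fold per microglial marker, against 2.57-fold in CPM. For the other 9 of 60 genes (Epha2, Ephb3, Nrp1, Nrp2, Plxnb2, Plxnc1, Sema4a, Sema4b and Sema4c) every list gave a wider range than CPM. Taking the narrowest of several lists for each gene favours a narrower range. So does dividing by a sum that is high in cKO 2 and control 1, for genes of that order. The counts by list also depend on the make-up of each sum. From cKO 5 to cKO 2 the excitatory neuron sum rose 4.01-fold and the radial glia and astrocyte sum 7.01-fold. The neuron list includes Mef2c, Sla and Tle4, which were lower in cKO 2 than in cKO 5. The shares among all genes tested were not computed, so the counts by list assign no gene to a cell type.

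The genotypes were compared with edgeR's quasi-likelihood test on the counts of all genes, with Benjamini-Hochberg adjustment. Of the 67 guidance genes, 60 passed the filter on low counts, and 7 did not (Sema3b, Sema3d, Epha1, Epha10, Efna3, Robo3 and Ntn4). No guidance gene was past an adjusted p of 0.05 in either direction: 0 were higher and 0 lower, against 0 of 15951 genes (0.0% in each direction), and each of the 60 guidance genes tested had an adjusted p of 0.9997. At an unadjusted p under 0.05 there were 0 guidance genes in edgeR, against 49 of all genes (0.307%). DESeq2 and limma-voom also gave 0 guidance genes after adjustment, with 1 and 0 at an unadjusted p under 0.05. The fitted log2 fold change was positive for 44 and negative for 16 of the 60 genes, with a median of 0.69 beside 0.03 for all genes tested. In limma-voom the median was 0.21, with 39 positive and 21 negative, beside −0.03 for all genes. The edgeR median depended on single libraries. It was −1.005 without cKO 2, 1.48 without cKO 5, 1.34 without control 1 and 0.32 without control 6.

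**Figure D4:**
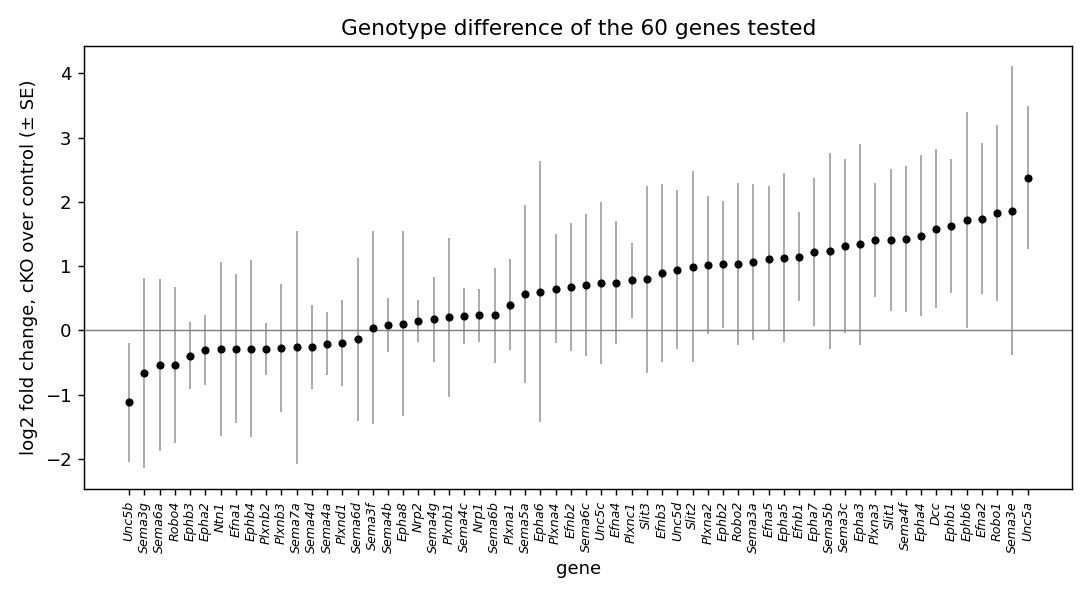
Log2 fold change of cKO over control with its standard error (edgeR) for the 60 guidance genes tested, in order of size. Estimates run from −1.12 for Unc5b to 2.38 for Unc5a, and Unc5a alone lies more than 2 standard errors from 0.

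The largest estimate was that of Unc5a, a netrin receptor of neurons (ENSMUSG00000025876, chromosome 13, 54949411 to 55006018, plus strand, GRCm38). It averaged 8.65 ± 9.67 CPM in cKO and 1.44 ± 0.0141 CPM in control (SD, n = 2 each), a log2 fold change of 2.38 ± 1.12 (SE; unadjusted p = 0.0954, adjusted p = 0.9997 in edgeR). Without cKO 2 the estimate was 0.44. Efnb1 averaged 31.96 ± 27.1 CPM in cKO and 12.7 ± 2.65 CPM in control, a log2 fold change of 1.14 ± 0.69, which was 0.10 without cKO 2. Plxna3 had a log2 fold change of 1.40 ± 0.88, and −0.23 without cKO 2. On the negative side, Unc5b had −1.12 ± 0.93, Ephb3 −0.40 ± 0.52 and Plxnb2 −0.28 ± 0.40, and the estimate for Plxnb2 was 0.08 without cKO 2. Unc5b averaged 10.1 ± 9.97 CPM in cKO and 19.9 ± 13.2 CPM in control.

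Among the leading genes of the families, Nrp1 (ENSMUSG00000025810, chromosome 8, 128358604 to 128503363, plus strand) averaged 358 ± 143 CPM in cKO and 285 ± 102 CPM in control (SD, n = 2 each), a log2 fold change of 0.24 ± 0.41. Sema4d (ENSMUSG00000021451, chromosome 13, 51701246 to 51793747, minus strand) averaged 231 ± 144 CPM in cKO and 275 ± 38.1 CPM in control (log2 fold change −0.26 ± 0.66). The Sema4d estimate was 0.38 without cKO 2 and −1.34 without cKO 5. Epha4 averaged 123 ± 148 CPM in cKO and 39.6 ± 33.5 CPM in control (1.48 ± 1.25), and Plxna2 129.8 ± 147 CPM and 57.2 ± 41.8 CPM (1.02 ± 1.08). The log2 fold changes of Sema3c (1.32 ± 1.36), Sema5b (1.24 ± 1.53), Slit2 (0.99 ± 1.48) and Unc5d (0.95 ± 1.24) were smaller than their standard errors. Those of Robo4 (−0.53 ± 1.22), Plxnd1 (−0.20 ± 0.67), Ephb4 (−0.29 ± 1.38), Efna1 (−0.29 ± 1.16), Ntn1 (−0.29 ± 1.36) and Sema6d (−0.14 ± 1.27) were negative. Without cKO 2 the estimate for Epha4 was −0.95 and that for Plxna2 −0.99.

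The guidance genes rarely separated the genotypes. On TMM-normalized CPM both cKO libraries lay above both controls for 1 of 60 genes, Unc5a (8.33% of all genes tested), and below both controls for 1, Ephb3 (7.64%). Ephb3 had 8.56 and 5.97 CPM on that scale in cKO 2 and cKO 5, against 8.75 and 10.4 CPM in control 1 and control 6. On CPM scaled by library totals alone Ephb3 no longer did. On that scale Nrp2, Plxnc1 and Unc5a lay above both controls (3 of 60, against 9.31% of all genes tested) and Plxnb2 below (1 of 60, against 6.57%). Some of these gaps were narrow. Nrp2 had 70.65 CPM in cKO 2 against 70.45 CPM in control 1, and Plxnc1 had 12.998 against 12.25 CPM. Plxnb2 had 221 CPM in cKO 5 against 225 CPM in control 1.

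The authors' deposited tables compare 1 cKO library with 1 control library, so their calls describe pairs of libraries, and the labels do not name the test behind them. The size of the ratio also entered: for cKO 2 over control 1, Plxna1 at a log2 fold change of 0.996 was not called and Plxna4 at 1.05 was. Some calls rest on few reads. Epha10 had 7 reads in cKO 5 and 0 in control 6, and Sema3b had 18 in cKO 5 and 0 in control 1. The pairs share libraries. In the authors' deposited table of cKO 2 over control 1, 36 of 67 guidance genes were called up (53.7%, against 20.0% of all genes in it) and 2 down (2.99%, against 11.6%), Epha10 and Plxnb3. In the authors' deposited table of cKO 2 over control 6, 51 of 65 were called up (78.5%, against 33.7%) and 2 down (3.08%, against 13.4%), Plxnb3 and Sema4d. For cKO 5 the direction was opposite. In the authors' deposited table of cKO 5 over control 1, 2 of 63 were called up (3.17%, against 8.79%), Plxnc1 and Sema3b, and 39 down (61.9%, against 26%). In the authors' deposited table of cKO 5 over control 6, 4 of 65 were called up (6.15%, against 9.23%), Epha10, Ephb1, Plxnc1 and Slit1, and 14 down (21.5%, against 11.4%). The authors' deposited table gives Plxnc1 a log2 fold change of 1.04 for cKO 5 over control 1 and 1.37 for cKO 5 over control 6, and 0.09 and 0.41 for cKO 2 over the same controls.

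Other genes of the guidance pathways, 118 of them tested, also gave no call in edgeR: 0 were higher, 0 were lower and 0 had an unadjusted p under 0.05. Co-receptors and adhesion molecules (29 tested) had 23 positive and 6 negative estimates with a median log2 fold change of 0.80. Of these, 25 of 29 were highest in cKO 2 (86.2%, against 47.8% of all genes tested). Islr2, a neuronal leucine-rich repeat protein, had 41.5 and 8.599 CPM in cKO 2 and cKO 5, against 11.5 and 1.45 CPM in control 1 and control 6 (1.84 ± 1.20). Unc5cl, an UNC5-like protein of epithelia, had 0.809 and 2.85 CPM against 3.55 and 9.05 CPM (−1.80 ± 1.07). Other ligands (13 tested) had a median of 0.93: Omg, a myelin-associated inhibitor, had 3.06 and 1.40 CPM in the cKO libraries against 1.09 and 0.348 CPM in the controls, and Rgmb, a repulsive guidance molecule, had 8.61 and 25.9 CPM against 6.07 and 10.6 CPM. Cytoplasmic effectors (76 tested) had 35 positive and 41 negative estimates and a median of −0.03. Of the 77 in the tables, 37 were highest in cKO 2 (48.1%, close to the 47.8% of all genes tested). Another 23 were lowest there (29.9%, against 25.2%). Abl1, a kinase of the Robo pathway, had 71.5 and 75.1 CPM against 114 and 83.7 CPM (−0.49 ± 0.32), and Cdk5r1, the neuronal activator of the kinase CDK5, had 15.7 and 6.63 CPM against 5.32 and 5.92 CPM (0.85 ± 0.59).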

How the data were processed

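Per the submitters' processing notes, Bowtie2 2.2.3, TopHat2 2.0.12 and HTSeq 0.6.0 were used with mm9; the step each served was not stated. Positions in the tables nevertheless matched GENCODE M21 (GRCm38) exactly for 59 of the 67 genes and overlapped it for all 67. Strandedness is not stated, so reads of overlapping genes cannot be told apart. The authors deposited 4 tables, each pairing 1 cKO with 1 control library, with raw read counts per Ensembl gene and CPM, in which a count of 0 carries the value of 0.5 reads. They also hold the authors' ratio of the paired CPM (fold change), its log2, and p-values from an unnamed test.

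Counts were joined on the gene ID (18723 of 21981 genes with a count in every library). edgeR 4.0.16 (R 4.3.3) used TMM factors, the filterByExpr filter (min.count 10) and a two-sided test, with p-values adjusted by Benjamini-Hochberg over 15951 genes; standard errors are the log2 fold change divided by the square root of the F statistic. The steps were tested on simulated data, and the outcome is not reported here. The fitted common dispersion, the squared coefficient of variation between libraries beyond counting error, was 0.425. How small a difference the fit could detect is not given. With 2 libraries a genotype, no exact permutation p can fall below 0.05. Exon lengths are unions of GENCODE M21 exons. Alternatives were DESeq2 1.42.0 and its size factors, limma-voom (limma 3.58.1), library totals, scaling on microglial markers, no filter, missing counts as 0, and leaving out each library. Fold changes are given for the most abundant gene of each family, the 3 smallest p-values in each direction and 2 genes of each other pathway list; 4 marker genes were fixed. The genes and lists were chosen with earlier results of these data known.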

Additional observations from a re-analysis of the deposited data

How the results depend on the processing

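The count of guidance genes past the threshold was 0 under every alternative run. DESeq2 gave 74 of all genes at an unadjusted p under 0.05, limma-voom 37 and the fit without a filter 149. The median log2 fold change of the guidance genes was 2.33 when libraries were scaled on microglial markers, where the median of all genes was 1.22, and it ranged from −1.005 to 1.48 when each library was left out. Limma-voom gave a median of 0.21. Scaling by library totals gave 4 of 60 guidance genes whose genotypes did not overlap, against 15.9% of all genes tested (16% on TMM-normalized CPM). Under that scaling Sema6d had a log2 fold change of 0.0013. Microglial scaling shifted all genes upward and made all 60 guidance genes positive, 48 of them above the shifted median of all genes, so the sign turned for Sema4d (0.41), Plxnb2 (0.69), Robo4 (1.01), Sema6d (1.39), Plxnd1 (1.06), Ephb4 (1.28), Efna1 (1.24), Ntn1 (1.35), Unc5b (0.43), Ephb3 (1.01), Abl1 (0.55), Bach1 (0.83) and Cldn5 (0.90). Of these, Sema4d, Plxnb2, Robo4, Plxnd1, Unc5b, Ephb3, Abl1, Bach1 and Cldn5 lay below that median. With each library left out in turn, the log2 fold changes that turned sign ranged as follows: Nrp1 −0.028 to 0.53, Sema4d −1.34 to 0.38, Plxnb2 −0.73 to 0.078, Plxna2 −0.99 to 1.90, Robo4 −2.56 to 1.01, Sema6d −2.17 to 1.65, Epha4 −0.95 to 2.61, Plxnd1 −0.80 to 0.80, Unc5d −1.14 to 2.46, Ephb4 −2.72 to 1.57, Sema3c −1.43 to 2.52, Sema5b −2.45 to 2.26, Efna1 −2.05 to 1.13, Slit2 −2.27 to 2.203, Ntn1 −2.80 to 0.60, Plxna3 −0.23 to 2.14, Rgmb −0.22 to 1.72, Csf1r −1.96 to 0.17, Bach1 −0.46 to 0.45, Neurod6 −1.42 to 2.35 and Cldn5 −2.46 to 0.89. The other 9 genes with a fold change kept their direction in those fits, in which the lone library of a genotype is assumed to vary like the other pair. The causes were not tested. No paired analysis was possible because the genotypes share no replicate number. Genes under 10 reads in a library are limited by counting error.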

Other observations

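Canonical ligand and receptor partners were set side by side as a description added after the data were seen. Of 47 such pairs among the guidance genes, 32 had their highest value in the same library, and in 31 of those it was cKO 2. Since most of these genes were highest in cKO 2, this count says nothing of the pairing itself.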
